A study of Mus musculus with 112 samples.

Results

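Sperm of wild type (WT) male mice exposed to cigarette smoke (CS) was compared with sperm of unexposed WT males, to ask whether CS exposure changes sperm DNA methylation (DNAme). The comparison took the 10 control WT and the 9 smoked WT libraries of F0 sperm by their labels, 19 of the 112 libraries in the series and of the 67 in F0 sperm. Reduced representation bisulfite sequencing (RRBS) gave the DNAme values. The method enriches CpG-rich fragments cut by restriction enzymes and reads an unmethylated cytosine as thymine after bisulfite treatment. All 19 libraries came from C57BL/6J wild type males, and by the study's methods the exposed males breathed a mixture of mainstream and side-stream CS from a smoking machine and were compared with age-matched unexposed males, with sperm taken from the cauda epididymis and vas deferens within days of the last exposure. Other F0 sperm groups were used for context and to estimate the spread between libraries. These were C57BL/6J wild type males kept for 3 successively longer times after the same exposure (called recovery 1, 2 and 3, with 9, 10 and 10 libraries), and unexposed (n = 10) or CS-exposed (n = 9) males of the NRF-/- strain label, here written Nrf2-/-, which lack the transcription factor NRF2 in every cell. F1 brain of the control WT group (n = 8) served as a reference for somatic tissue. By the study's methods it was prefrontal cortex of male offspring of C57BL/6J sires and CAST/EiJ dams. It thus differs from the F0 sperm in strain and generation as well as in tissue. The labels number the libraries of a group as replicates and do not say whether animals shared a litter or cage, so p-values measure the spread between these libraries.

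CpG methylation of the male germline is laid down before birth by DNMT3A with its cofactor DNMT3L and is then copied by DNMT1 at each division of the spermatogonia. Mature sperm are highly methylated outside CpG islands, carry almost no methylation at CpG island promoters, lack the maternal imprints and hold the few paternal ones, and they do not transcribe.

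The profiles were those of sperm in both groups. Of 15 maternally methylated imprinted promoters, 13 were measured, and 12 of them had mean DNAme between 0.0811% and 3.53% in either WT group, against 19.8% to 68.3% in F1 brain of the control WT group (n = 8) in the same windows. The exception was Slc38a4, an amino acid transporter gene, where smoked WT had 22.6% ± 1.14 (SD, n = 9) against 23.2% ± 1.08 (n = 10). Its 17 cytosines spread over chr15:97019809-97056289, around transcript starts far apart. The mean is thus not that of a single promoter. The paternally methylated H19 control region had 95.1% ± 5.71 (n = 7) in smoked WT against 93.7% ± 4.59 (n = 8). At the Rasgrf1 control region the values were 88.0% ± 4.42 (n = 6) and 88.8% ± 2.22 (n = 9). Brain stood at 37.5% and 28.2% in these windows. The window of Meg3 was not measured. Promoters of 23 germline genes ranged from 0.449% to 9.12% in control WT and from 0.600% to 8.70% in smoked WT, with a median of 1.66% and 1.35%. Brain was also low at Hspa1l (1.01%), Smc1b (4.85%) and Stag3 (6.18%), which thus do not set sperm apart. At the others it ranged from 11.5% at Tdrd6 to 97.2% at Rpl10l. Peg10 and Sgce share a window, so the 13 promoters are 12 windows. Averaged over the 13, with that window counted for each gene, the lowest, median and highest libraries were at 2.27%, 2.68% and 3.51% in smoked WT, and at 2.13%, 2.56% and 5.36% in control WT. The groups overlapped and differed by -0.112 points (exact two-sided permutation test over 92378 assignments, p = 0.820). Control WT column 1 held the highest value, and stood at 4.455% with the shared window counted once, where the groups differed by -0.0423 points (exact permutation p = 0.881). Without that library smoked WT was the higher group by 0.161 points (exact permutation p = 0.441).

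Libraries differed in how much they covered. The number of cytosine positions with a value ranged from 800605 to 1673297 in control WT and from 955196 to 1855573 in smoked WT. The percents came without numbers of reads. Depth is therefore unknown for every value, and counting intervals could not be formed. In region values, control WT column 7 and smoked WT columns 2 and 4 stood farthest from the median of the 19 libraries, by 2.52, 2.50 and 2.76 points on average. Smoked WT column 4 was more than 20 points from the median in 758 regions and below it in 711 of them. Control WT column 1, at 2.09 points, is grouped with these 3 farthest libraries. Control WT columns 9 and 5 lay farther out than it, at 2.20 and 2.11 points, and are not. The grouped libraries are called the 4 libraries that stand apart, and counts are also given without them.

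Mean DNAme did not differ beyond the spread between libraries. Over the 467252 cytosines with a value in all 19 libraries, the lowest, median and highest libraries were at 43.8%, 45.5% and 46.5% in control WT and at 41.9%, 45.2% and 45.7% in smoked WT. The ranges overlapped, and smoked WT column 4 was the lowest of the 19. The means were 45.3% ± 0.828 (SD, n = 10) in control WT and 44.8% ± 1.16 (n = 9) with CS, a difference of -0.443 points (exact two-sided permutation test, p = 0.379). Without the 4 libraries that stand apart the difference was 0.0618 points in the other direction (exact permutation p = 0.885). These 4 include control WT column 1, the highest of the 19, and smoked WT column 4, the lowest. Leaving out those 2 raises the difference by construction, so the changed sign is not independent of the choice.

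**Figure D1:**
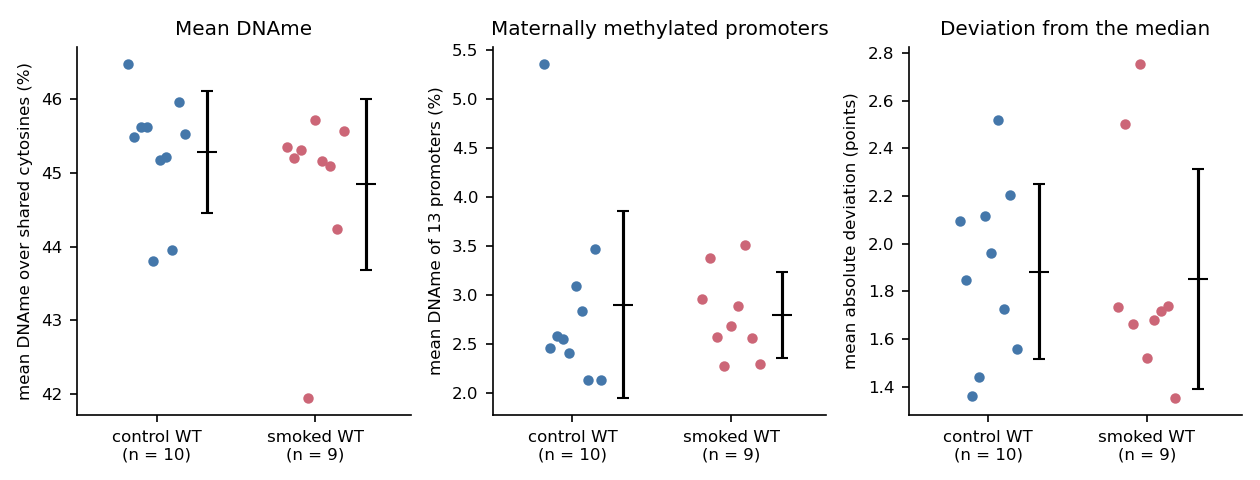
Each point is a library of control WT (n = 10) or smoked WT (n = 9) sperm, with bars for the mean ± SD, and the panels show mean DNAme in percent over 467252 cytosines shared by all 19 libraries, mean DNAme in percent of 13 maternally methylated imprinted promoters, and the mean absolute deviation in percentage points from the median of all libraries. The groups overlap in all 3 panels, smoked WT column 4 is lowest in the first at 41.9%, and control WT column 1 is highest in the second at 5.36%.

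Libraries that covered more positions had lower mean DNAme, also over cytosines that all libraries covered. Pearson's r between the number of positions and the mean over shared cytosines was -0.728 (n = 19, permutation p = 0.00024, Benjamini-Hochberg adjusted p = 0.00144) and Spearman's rho was -0.453 (permutation p = 0.054, adjusted p = 0.081). Within control WT libraries r was -0.690 (n = 10) and rho -0.455, and within smoked WT they were -0.786 and -0.367 (n = 9). The permutation p was 0.034 for each r (adjusted p = 0.068) and 0.19 and 0.34 for the rho values (adjusted p = 0.228 and 0.34), with 6 relations computed in all. The relation was weaker without the libraries at the ends of the range. Leaving out the 2 libraries farthest from the median number of positions, r was -0.531 over both groups, -0.119 in control WT and -0.419 in smoked WT. The number of positions itself did not differ between the groups beyond the spread (exact permutation p = 0.643). With the log2 number of positions as a covariate, the difference was -0.280 points (exact permutation p = 0.469).

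**Figure D2:**
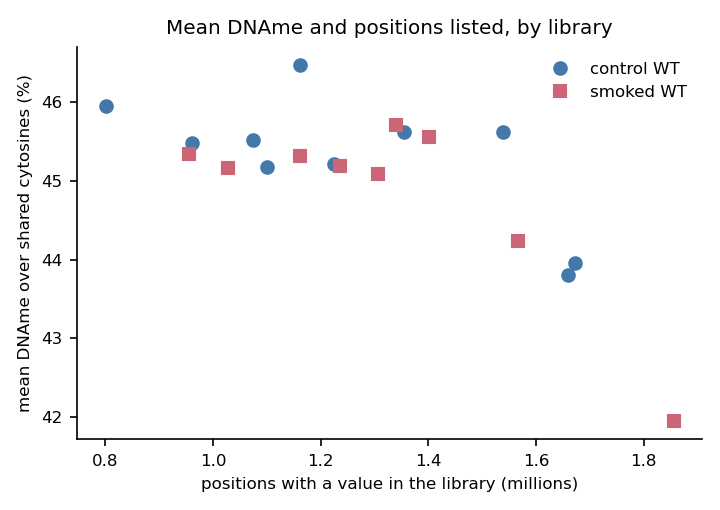
Each point is a library, with the number of positions that had a value on the x axis and its mean DNAme in percent over the 467252 shared cytosines on the y axis, for control WT (circles) and smoked WT (squares). Smoked WT column 4, with 1855573 positions, is at the lower right at 41.9%, and control WT columns 5 and 8 and smoked WT column 8 are the next lowest.

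The profiles of the 2 groups were not set apart as wholes. Over the 40814 regions with a value in every library, 2 libraries of different groups lay 4.76 points apart (root mean square) and 2 libraries of the same group 4.79 points apart, so that the mean between-group distance did not exceed the mean within-group distance (difference -0.0308 points, exact permutation p = 0.555). The leading principal component held 18.9% of the variance, with smoked WT column 4 and control WT column 5 farthest out, a library from each group. The mean absolute deviation of a library from the median of all 19 was 1.85 ± 0.463 points (SD, n = 9) in smoked WT against 1.88 ± 0.366 points (n = 10), with an exact permutation p of 0.870. Variation between libraries was thus not shown to differ between the groups.

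Regions were runs of cytosines at most 100 bp apart that had a value in at least 4 libraries of every F0 sperm group. There were 62831 such regions, with a median of 6 cytosines and 111 bp. DMRs, or differentially methylated regions, were taken by size alone: over 5 points of change in 33.3% or more of the cytosines, and over 5 points in their mean. Such calls carry no test. The rule called 2.61% of all regions, 0.683% as higher and 1.93% as lower in smoked WT. limma, a linear model that borrows information on the spread across regions, tested each region with the spread between libraries of all 7 F0 sperm groups. After Benjamini-Hochberg adjustment it called 1 region of 62830 (0.00159%), and at unadjusted p under 0.05 it had 2442 (3.89%).

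The share of regions called by size was highest at partial DNAme, where libraries also varied most. Of the 30329 regions at or under 5% in control WT, 6 were DMRs. All of them were higher in smoked WT, as a fall of over 5 points is hardly possible from that level. Of the 2082 regions at 25% to 50%, 416 were DMRs (20.0%), and of the 2051 at 50% to 75%, 390 were (19.01%). By number most DMRs of any class, 454 of 9932 regions (4.57%), lay at 75% to 95%, and 284 of 4693 (6.05%) lay at 5% to 25%. Above 95%, 92 of 13744 were (0.669%). The median SD between smoked WT libraries was 0.763 points in the lowest class, 6.79 points at 25% to 50% and 2.09 points above 95%, and in control WT it was 0.914, 7.67 and 1.95 points. At unadjusted limma p under 0.05 the classes differed less, and partial DNAme again had the higher shares. They were 3.72% in the lowest class, 4.54% at 5% to 25%, 5.28% at 25% to 50%, 5.22% at 50% to 75%, 3.76% at 75% to 95% and 3.73% in the highest. Chance alone gives about 1 in 20, and all of these shares lay near or below it.

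DMRs were unevenly spread over the annotation. Promoter regions, within 1000 bp of a transcript start, held 176 DMRs of 24327 (0.723%), coding exons 194 of 6443 (3.01%), introns 487 of 14828 (3.28%) and intergenic sequence 740 of 15833 (4.67%). Among regions at 25% to 75% in control WT alone, the shares were 18.7% for promoters, 21.6% for coding exons, 18.4% for introns and 19.9% for intergenic regions. CpG island-like regions held 57 DMRs of 19989 (0.285%), and 27 of 107 at 25% to 75%. Regions with at least 50% of their bases in repeats masked in the reference held 317 of 4940 (6.42%). Autosomes ranged from 2.14% of regions on chromosome 16 to 3.08% on chromosome 3, the X chromosome had 3.66%, and the Y chromosome had 6 of 46.

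The data were precise enough to bound most changes. In 47903 of the regions the 95% confidence interval of the limma difference lay wholly within 5 points of 0. Those were 29554 of the 30329 regions at or under 5% in control WT (97.4%), 83.2% of those above 95%, but 195 of 2082 (9.37%) at 25% to 50%. The median interval was 1.93 points wide in the lowest class and 14.96 points wide at 25% to 50%, so that in partially methylated regions a change of 5 points could mostly not be shown or bounded here.

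**Figure D3:**
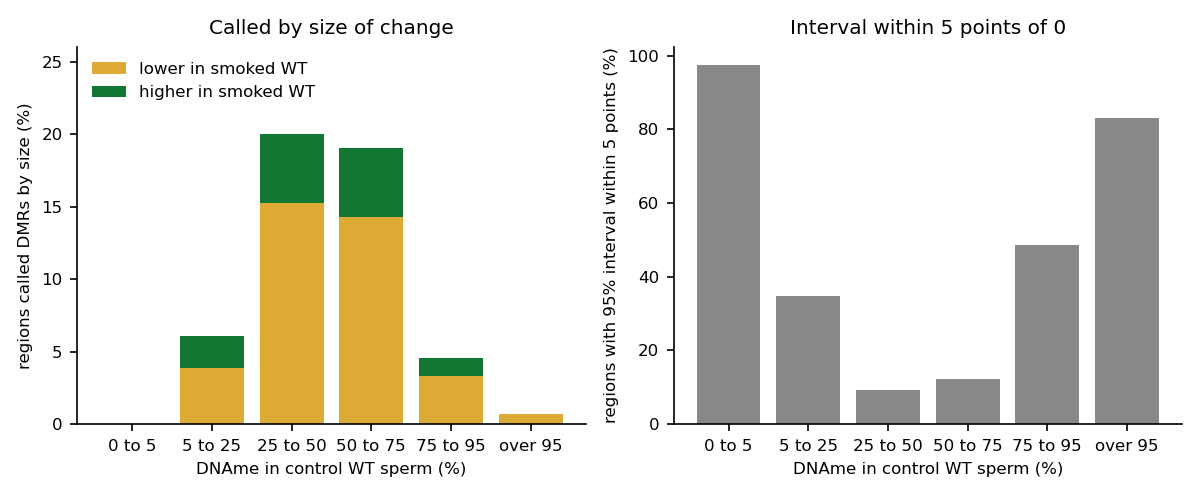
Both panels group the 62831 regions by their DNAme in control WT sperm in percent. The left bars, the percent of regions called DMRs by size in each direction, reach 20.0% at 25% to 50%, and the right bars, the percent of regions whose 95% interval of the limma difference lies within 5 points of 0, fall to 9.37% in that same class.

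Most DMRs did not pass even an unadjusted test. Of the 1642 DMRs, 436 had an unadjusted limma p under 0.05 (26.6%), and 0 passed after adjustment, where the lowest limma adjusted p among them was 0.9997. Their median absolute difference was 6.53 points, and the median half-width of the 95% interval was 8.88 points. Of the 40814 regions with a value in all libraries, 0 had groups that did not overlap (0% of them), and so had 0 of the 660 such DMRs. Lower DMRs outnumbered higher ones by 1213 to 429, in the same direction as all regions, of which 40.7% were higher in smoked WT with a median difference of -0.149 points. Without the 4 libraries that stand apart, 1643 DMRs split as 682 higher and 961 lower, and the median difference of all regions was 0.0519 points. These were in part other regions. Of the original 1642 DMRs, 912 kept a difference of over 5 points in region values, 281 of the 429 higher and 631 of the 1213 lower.

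Unexposed and CS-exposed Nrf2-/- males share no library with the WT groups and so gave a separate look at the same regions. They are another genotype, in which the study reports no further effect of CS on sperm DNAme. Their contrast is therefore not a repeat of the WT one. In the 429 DMRs that were higher in smoked WT, the median smoked minus control difference in Nrf2-/- sperm was 0.465 points, and 228 of them were higher there (53.1%). In the 1213 lower DMRs the median was -0.000664 points and 606 were higher (49.96%). Over all regions it was -0.0760 points, and 45.3% were higher. The WT differences that chose these regions had medians of 6.57 and -6.52 points. The difference between both contrasts, tested in limma over 62828 regions, passed in 0 after adjustment and had unadjusted p under 0.05 in 2621.

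Levels in the recovery groups are set beside those of the WT groups without a test, because any comparison with them reuses the same libraries. In the higher DMRs the median level was 51.6% in control WT and 60.4% in smoked WT, and 52.2%, 54.3% and 52.4% in recovery 1, 2 and 3. In the lower DMRs it was 59.6% in control WT and 51.4% in smoked WT, and 53.7%, 56.1% and 52.6% in the recovery groups. Unexposed Nrf2-/- sperm had 53.5% in the higher and 54.5% in the lower DMRs. Among the 1642 DMRs, control WT alone was the outermost of the 7 group means in its direction in 483, smoked WT alone in 530, both were at opposite ends in 157, and neither was in 472. The DMRs were chosen by the gap between these 2 means, which favours an outermost place for 1 or both. The same counts over all regions were not taken, so no conclusion is drawn from them.

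The region that passed the limma test lay in an intron of Enpp4, on chr17:44105367-44105500 (mm10), 264 bp from the nearest transcript start of this reverse-strand gene, and by that distance counts as a promoter region. Enpp4 encodes a membrane ectoenzyme that splits dinucleoside polyphosphates. The sequence is shown because this is the only called region, with every CpG in capitals, on the forward strand 5′ to 3′.
Enpp4: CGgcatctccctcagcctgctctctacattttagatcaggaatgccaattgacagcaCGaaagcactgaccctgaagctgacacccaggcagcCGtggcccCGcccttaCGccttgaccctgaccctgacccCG

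As plain means over the cytosines with a value, the 8 smoked WT libraries had 0%, 0.909%, 1.25%, 2.41%, 2.50%, 3.33%, 5.00% and 6.67% at Enpp4, and smoked WT column 1 had no value. Of the 10 control WT libraries 9 had 0% and 1 had 0.714%. All but 1 of the smoked WT values lay above the highest control WT value. The 4 control WT libraries without a value at the first cytosine, and the 1 such smoked WT library, read 0% at their other cytosines, and the adjustment for missing cytosines puts them at 0.393%. On the adjusted scale the means were 2.81% ± 2.14 (SD, n = 8) and 0.229% ± 0.259 (n = 10), a difference of 2.58 points (SE 0.445, limma adjusted p = 0.0193). On plain means the difference was 2.69 points (limma adjusted p = 0.0120). The change sat at the edge of the region. At the first cytosine, chr17:44105367, the mean was 11.9% over 7 smoked WT libraries, of which 4 were above 0, and 0% in all 6 control WT libraries with a value. The next 2 cytosines were at 0% in every library of both groups, the fourth at 0.568% and 0%, and the last, at 44105500, at 2.81% in smoked WT and 0.357% in control WT. The recovery groups were at 0.314%, 0.395% and 0.435%, unexposed Nrf2-/- at 0.579% and CS-exposed Nrf2-/- at 0.454%. With a joining distance of 300 bp the difference over the longer region was 0.548 points. The call was lost in a fit of the WT groups alone (limma adjusted p = 0.992), on the arcsine scale (0.0979), with array weights (0.207), with the number of positions as a covariate (0.997), with libraries blocked by facility number (0.995), without the 4 libraries that stand apart (0.342) and without smoked WT columns 3, 4 or 7 (0.111, 0.0925 and 0.107).

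The 2 lower DMRs with the smallest p are shown as sequence beside a higher DMR that lies wholly in masked repeat. Capitals again mark every CpG, on the forward strand.
Cd96, chr16:46119866-46119944: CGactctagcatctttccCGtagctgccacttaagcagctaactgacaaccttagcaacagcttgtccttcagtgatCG
Cfap61, chr2:146045262-146045342: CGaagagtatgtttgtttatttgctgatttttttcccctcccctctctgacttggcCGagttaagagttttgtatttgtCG
Wdr59, chr8:111521216-111521282: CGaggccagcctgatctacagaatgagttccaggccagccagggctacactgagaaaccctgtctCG

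The Cd96 region lay in an intron, 307 bp from a start of that gene, and so counts as a promoter region. Cd96 encodes an immunoglobulin-family receptor of T and natural killer cells. The lowest, median and highest libraries were at 22.04%, 29.7% and 50.4% in control WT and at 11.1%, 20.2% and 28.998% in smoked WT. Of the smoked WT libraries, 5 lay below the lowest control WT library, and the groups overlapped between 22.04% and 28.998%. The means were 32.5% ± 9.48 (SD, n = 10) and 19.8% ± 5.85 (n = 9), a difference of -12.7 points (SE 3.05, limma adjusted p = 0.9997). All 3 cytosines were lower in smoked WT, by -13.4, -17.8 and -6.83 points. The recovery groups stood at 21.7%, 24.3% and 24.8% and the Nrf2-/- groups at 22.05% unexposed and 26.3% exposed, so that control WT was the highest and smoked WT the lowest of the 7 groups here.

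The Cfap61 region lay in an intron of the gene of a flagellar radial spoke protein of sperm, 110248 bp from the nearest transcript start. Control WT libraries had 59.01%, 70.9% and 80.5% as lowest, median and highest, and smoked WT libraries 41.6%, 58.8% and 63.3%. Only 1 control WT library, column 8, lay within the smoked WT range, and 5 smoked WT libraries lay below it. The means were 71.1% ± 6.67 (n = 10) and 54.7% ± 7.38 (n = 9), a difference of -16.4 points (SE 3.98, limma adjusted p = 0.9997). Each of the 3 cytosines was lower, by -12.1, -18.5 and -18.6 points. Here smoked WT was the outlying group, with recovery 1, 2 and 3 at 68.6%, 70.7% and 68.998% and the Nrf2-/- groups at 74.1% unexposed and 74.3% exposed.

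**Figure D4:**
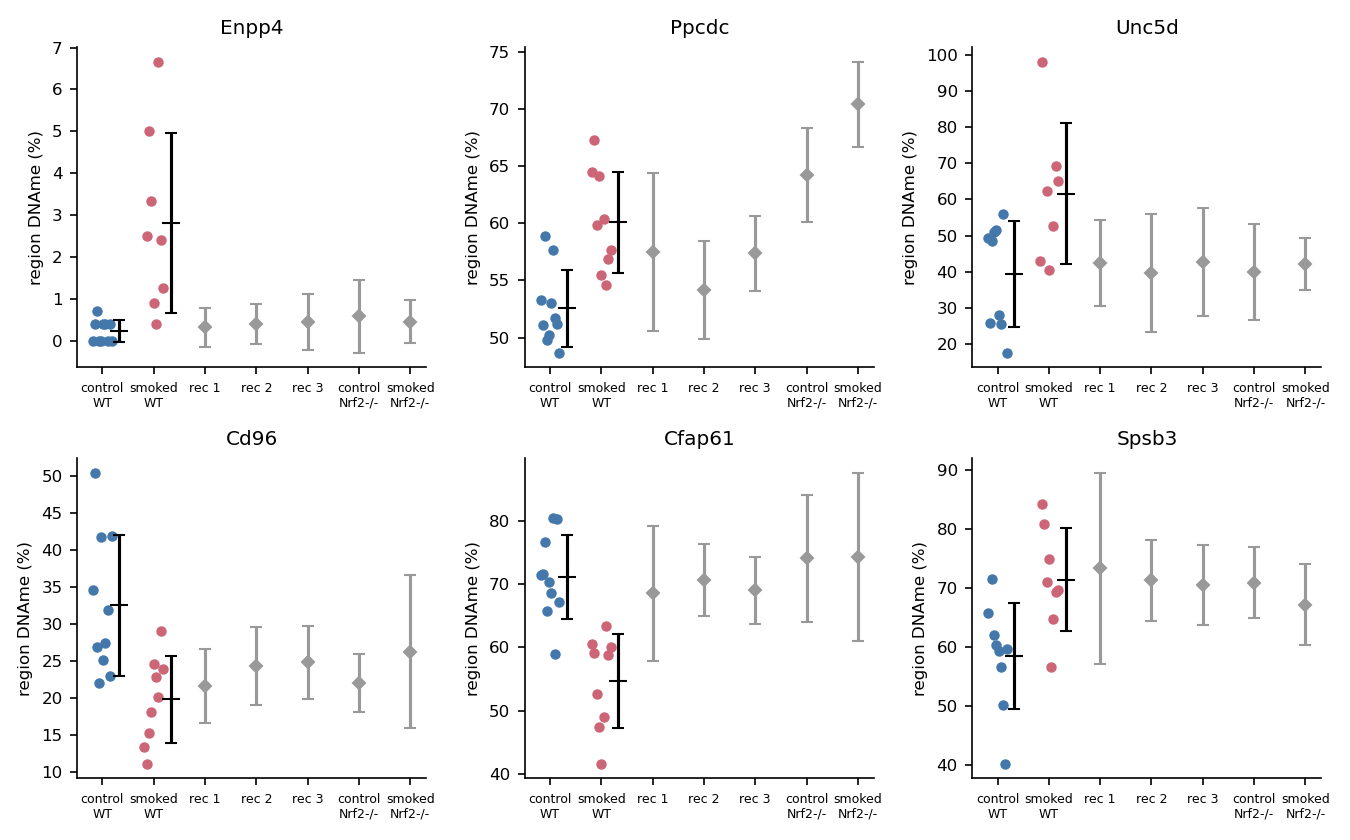
In panels of region DNAme in percent at Enpp4, Ppcdc, Unc5d, Cd96, Cfap61 and Spsb3, coloured points are the control WT (n = 10) and smoked WT (n = 9) libraries with a value and black bars their mean ± SD, and grey diamonds are the mean ± SD of the 3 recovery (rec) and the 2 Nrf2-/- groups. Smoked WT stands off from the other groups at Enpp4, Unc5d and Cfap61, and control WT does at Cd96 and Spsb3.

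Of the DMRs higher in smoked WT, the region with the smallest p lay in a non-coding exon of Ppcdc, a gene of coenzyme A synthesis, with 53.6% of its bases in repeats. Control WT libraries had 48.7%, 51.5% and 58.9% as lowest, median and highest, and smoked WT libraries 54.6%, 59.8% and 67.3%. The highest 5 smoked WT libraries lay above every control WT library. The means were 52.6% ± 3.34 (n = 10) and 60.1% ± 4.40 (n = 9), a difference of 7.53 points (SE 2.00, limma adjusted p = 0.9997). In Nrf2-/- sperm, the CS-exposed libraries had 70.4% and the unexposed ones 64.2%, a difference of 6.18 points in the same direction. Wdr59, which encodes a subunit of the GATOR2 complex of nutrient sensing and whose printed sequence is wholly masked as repeat, had, 705 bp from a start and so also in the promoter class, 19.9% ± 9.20 (n = 9) in smoked WT against 11.7% ± 6.17 (n = 10) in control WT. There too the Nrf2-/- contrast was in the same direction, with 18.8% against 9.996%. Of the 8 higher DMRs with the smallest p, 4 had the opposite sign in Nrf2-/- sperm, with -1.17 points at Tnnc2, -4.20 at Emcn, -2.92 at Gm12760 and -3.74 at Spsb3. Without the 4 libraries that stand apart the WT difference at Wdr59 was 3.49 points in place of 8.11. Masked repeat also made up 58.02% of the bases at Cfap61, 76.1% at Cdca5, 85.3% near Gm10403, 51.4% near Emcn and 100% near Clec4a4. The part of reads from other repeat copies in these values was not tested.

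The other 6 higher DMRs by p lay at Tnnc2 and Ube2c, Prkg1, Unc5d, Emcn, Gm12760 and Spsb3, and their differences ranged from 5.09 to 22.2 points. Exons of Tnnc2, a troponin of fast muscle, and of Ube2c, a ubiquitin-conjugating enzyme of mitotic exit, overlap the lowest of these regions, which had 6.02% ± 4.92 (n = 9) against 0.929% ± 0.869 (n = 10). Joined at 300 bp, the longer region there differed by 0.0702 points. At Prkg1, a cGMP-dependent protein kinase, smoked WT had 90.9% ± 3.14 and control WT 83.3% ± 8.24, and the recovery groups were at 89.6% to 90.2%. The intron of Unc5d, a netrin receptor, had 61.5% ± 19.5 (n = 7) against 39.4% ± 14.6 (n = 9). In smoked WT 1 library was at 98.1% there, and the recovery groups were at 39.8% to 42.7%. At Emcn, an endothelial sialomucin, the values were 95.5% ± 3.01 (n = 8) and 84.7% ± 11.7 (n = 9). A region over coding sequence of Spsb3, 666 bp from a start and so counted as a promoter region, had 71.4% ± 8.80 (n = 8) in smoked WT against 58.4% ± 9.03 (n = 9) in control WT, and every other group was nearer to smoked WT, from 67.2% to 73.4%. Without the 4 libraries that stand apart the differences were 3.73 points at Prkg1 (from 7.53) and 14.2 points at Unc5d (from 22.2), and at Spsb3 the difference was 7.19 points (from 13.04) with cytosines scoreable in the 2 WT groups only. For all 8, the limma adjusted p was 0.9997.

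The other 6 lower DMRs by p had differences of -18.0 to -6.96 points. They lay near Gm10031, Uqcrh-ps2, Fhl2 and Gm13414 and inside Gm36862 and Cdca5. In the intron of Cdca5, which encodes sororin, a protein that holds sister chromatids together, smoked WT had 61.1% ± 5.08 (n = 9) and control WT 69.4% ± 3.77 (n = 10). Of the smoked WT libraries 7 lay below the lowest control WT library, the most of any of these lower regions. Its recovery groups were at 61.7% to 62.6%. The region 29017 bp from a start of Fhl2, a LIM-domain cofactor, had 57.7% ± 8.62 (n = 9) and 67.7% ± 6.61 (n = 10). In Nrf2-/- sperm it had 53.8% with CS and 48.7% without, and the WT and Nrf2-/- differences had opposite signs. Near the Uqcrh-ps2 pseudogene smoked WT had 27.8% ± 9.11 and control WT 45.8% ± 14.7.

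Regions of large change were ranked by the mean change of their cytosines, the measure of the size rule, while the differences given here are of the adjusted region values, so the order of both can differ. The largest lower change was in a coding exon of Mro, a gene of the HEAT-repeat protein maestro, where smoked WT had 40.1% ± 18.4 (n = 8) and control WT 63.9% ± 6.30 (n = 7), a difference of -23.8 points (SE 9.69). Smoked WT column 1 was at 0.0245% and the highest smoked WT library at 59.7%, while control WT spanned 53.4% to 73.0%. The 5 other F0 groups were at 37.8% to 47.4%. Beside Uqcrh-ps2, the differences were -17.8 points at the beta-defensin gene Defb48, -17.3 points near Gm10403 and -15.6 points in the potassium channel gene Kcnh1. At Kcnh1 the Nrf2-/- difference, -21.3 points, had the same sign and was the largest in size of the 24 regions. Of the higher regions ranked this way, beside Unc5d and Gm12760, the difference was 16.3 points near Gm14323, where control WT column 7 was at 6.32% and the control WT median was 54.3%. The other differences were 14.2 points in a coding exon of Tmem274, inside Nmnat1, an NAD synthesis gene, and 11.1 points near the lectin gene Clec4a4. Without the 4 libraries that stand apart the differences were 9.08 points near Gm14323 and -6.76 points in Kcnh1. The limma adjusted p was 0.9997 for each. Mean changes just past the rule's 5 points (up to 5.5) held 337 regions, and 404 regions with enough changed cytosines lay just short of it (from 4.5).

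**Figure D5:**
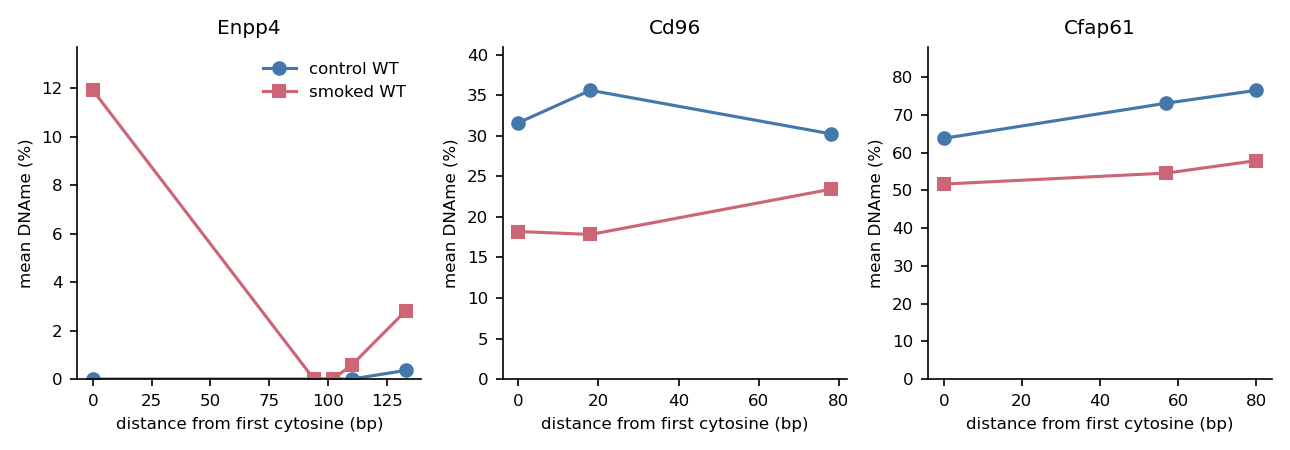
Mean DNAme in percent of each scoreable cytosine in control WT (circles) and smoked WT (squares) libraries, against the distance in bp from the first cytosine of the region. At Enpp4 the first cytosine carries the difference, at 11.9% against 0%, while at Cd96 and Cfap61 every cytosine is lower in smoked WT.

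At single cytosines, limma called 6 of 1023708 (0.000586%) after adjustment. The 5 with the smallest p are shown on the forward strand with 14 bases on either side of the scored cytosine and its CpG in capitals. At Akap1 and Grip2 the scored cytosine is on the reverse strand, opposite the capital G.
Near Rab3d, chr9:21901609-21901637: ttaccggaagttagCGaacactgccttct
Akap1, chr11:88864152-88864180: gccccgagctcagCGcacgcgatctgtca
Grip2, chr6:91819505-91819533: ttgatgcttttgtCGatttccagtcgatg
Cntrl, chr2:35109563-35109591: gaggggaagtatccCGgcgtctccgcctc
Hs3st2, chr7:121391978-121392006: agggtgggtgttggCGtaatctcaggtgt

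At 4 of these cytosines all libraries of a group with a value had the same percent. The cytosine 16494 bp from the Rab3d start was at 0% in all 8 control WT libraries with a value and at 8.96% ± 7.29 (SD, n = 6) in smoked WT. The cytosine in the first exon of Cntrl, a centriole protein gene, was at 0% in 9 control WT libraries and at 5.03% ± 4.07 (n = 7) in smoked WT, while the other strand of the same CpG had 2.08% in control WT and 2.33% in smoked WT. In the opposite direction, a cytosine near the start of Akap1, a mitochondrial kinase anchor, was at 0% in 6 smoked WT libraries and at 6.24% ± 4.52 in the 4 control WT libraries with a value. In an intron of Grip2, a synaptic scaffold gene, all 9 smoked WT libraries were at 100% and control WT libraries ranged from 75% to 100%, with a mean of 88.9% ± 7.33 (n = 10). At Hs3st2, a heparan sulfate sulfotransferase gene, smoked WT was at 0.529% ± 1.59 (n = 9) and control WT at 10.6% ± 8.19 (n = 4). The 5 other F0 groups had means of 0% at Akap1, 0% to 0.985% at Hs3st2 and 97.3% to 99.1% at Grip2. At these cytosines they were nearer to smoked WT, and control WT stood off. They had 0% to 1.32% at Rab3d and 0% to 0.735% at Cntrl, nearer to control WT. The limma adjusted p was 0.0156 for each of the 5 cytosines. Scoreable neighbours within 100 bp were found at 4 of them. Their median difference was 1.04 points at Rab3d, -0.331 at Akap1, 0 at Cntrl and 1.17 at Hs3st2. In a fit of the 2 WT groups alone limma called 0 cytosines, with 22906 at unadjusted p under 0.05.

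Promoters of genes with a known role in the response to smoke were mostly low in DNAme in both groups, with a median of 0.803% in smoked WT and 0.778% in control WT for the NRF2 pathway. Windows of 1000 bp on either side of every transcript start gave 20067 promoters that could be tested. Of these, limma called 0 after adjustment (0%) and 845 at unadjusted p under 0.05 (4.21%), and their median difference was -0.102 points. Of 39 measured NRF2 pathway and antioxidant genes 3 had unadjusted p under 0.05, with a median difference of -0.110 points, and in all 39 the 95% interval lay within 5 points of 0. At Hmox1, the stress-induced heme oxygenase, the lowest, median and highest smoked WT libraries had 0%, 1.37% and 11.6% and control WT libraries -0.364%, 0.184% and 1.88% on the adjusted scale, in which a value can fall slightly below 0. The mean was 2.52% ± 3.84 (n = 8) against 0.359% ± 0.670 (n = 10), and 4 smoked WT libraries were above the highest control WT library. Without smoked WT column 2, at 11.6%, the difference at Hmox1 was 0.867 points in place of 2.16. The peroxiredoxin genes Prdx1 and Prdx2, which encode peroxide-reducing enzymes, differed by -0.743 and -0.554 points, and Prdx1 by -0.447 points without control WT column 7. The limma adjusted p was 0.999 for all 3.

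In the other lists, 0 promoters passed after adjustment. Of 15 aryl hydrocarbon receptor, xenobiotic and smoking-marker genes 0 had unadjusted p under 0.05, and 13 had an interval within 5 points. The same count was 0 of 9 nicotinic acetylcholine receptor genes, 0 of 17 DNA methylation writers and erasers, 0 of 22 DNA damage repair genes and 0 of 7 sperm chromatin packaging genes, whose median differences ranged from -0.261 to -0.00550 points, and 0 of the 2 paternally methylated control regions. In these 5 lists, in the same order, 9, 15, 22, 6 and 0 members had an interval within 5 points. A change of 5 points was thus not bounded at the paternally methylated control regions. Among 36 Hox promoters, Hoxc8 had 0.4999% ± 0.272 (n = 9) against 1.66% ± 1.16 (n = 8). Of the 13 maternally methylated imprinted promoters, Nespas, an antisense transcript of the Gnas locus, was at 1.68% ± 2.54 (n = 9) in smoked WT against 0.566% ± 0.650 (n = 10), with a single smoked WT library at 8.30% and above the highest control WT library. Of 23 germline promoters, Mael, a piRNA pathway gene, had 3.61% ± 2.53 (n = 9) against 2.05% ± 1.19 (n = 9), and the meiotic axis gene Hormad1 3.99% ± 2.42 (n = 8) against 2.78% ± 0.851 (n = 10). For 3 of these, a single smoked WT library moved the difference by over 1.5 times. It was 0.287 points in place of 1.11 at Nespas without column 7, 0.417 in place of 1.21 at Hormad1 without column 2, and 0.959 in place of 1.57 at Mael without column 1. Hoxc8, Nespas, Mael and Hormad1 had limma adjusted p of 0.999.

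Spread within a group was also compared region by region, with limma on each library's absolute deviation from its group median. After adjustment 1 of 62830 regions passed (0.00159%), and 1481 had unadjusted p under 0.05. It lay in an intron of Npr2, a natriuretic peptide receptor gene, with Gm12473 as the nearest start, where 8 smoked WT libraries spanned 94.9% to 101% and the 4 control WT libraries with a value 87.2% to 100% (limma adjusted p = 0.00343). With a mean of 93.6% and an SD of 7.34 points, these 4 values lay near both ends of their range. Their distances from the median were thus nearly equal, which lowers the error this test estimates. The call rests on that layout of 4 values. The region with the next smallest p lay at the Plekhg5 promoter, with an SD of 1.23 points in smoked WT (n = 8) and 0.0791 points in control WT (n = 7), and did not pass (limma adjusted p = 0.167).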

How the data were processed

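Per the labels and the study's methods, sperm DNA was cut with MspI and TaqαI, bisulfite-converted and read in single 50-base reads, and the authors aligned the reads to mm10 (GRCm38) with Bismark. The deposited tables give DNAme as a percent per cytosine and library, without read counts, so the read minimum of the study's methods could not be checked or applied. The Bismark version is not given in the sources used here. Column headings match no sample label, so columns were assigned by group and named by order. There were 0 unused columns of values in the tables used.

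Cytosines with a value in at least 4 libraries of each of the 7 F0 sperm groups were scoreable (1023708), on the autosomes, X and Y, each strand apart. A region was at least 3 scoreable cytosines at most 100 bp apart, over 50 bp long. Its value per library was the mean over cytosines, adjusted for which had a value (at least 50%), so it can pass slightly below 0 or above 100. The thresholds of the size rule are those of the study. Departures are the missing read minimum, the joining distance, the need for values in all 7 groups, and counting the strands of a CpG apart, so that a region such as Wdr59, with 2 CpGs, could qualify. limma 3.58.1 (R 4.3.3) fitted the means of all 7 groups, with Benjamini-Hochberg adjustment at 0.05. Whole-library values were tested by exact permutation. On simulated region values limma recovered 91 of 100 changes of 10 points and 100 of 100 of 20 points among 40814 regions, with 10 false calls. These counts are not split by DNAme level. They do not give the recovery in partially methylated regions, where the median interval was 14.96 points wide at 25% to 50% in control WT. In the simulated fit limma called 201 regions, against 1 in the real data. The Benjamini-Hochberg cutoff is looser with more calls. The rates therefore do not give the recovery of a few changes of that size in the real data. Genes are from the basic annotation of GENCODE vM21, and sequences from the GRCm38 reference. Where nothing says which animals shared a chamber or a batch, p-values measure the spread between these libraries.

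Named were regions and cytosines that passed limma (of cytosines the 5 with the smallest p), the 8 higher and 8 lower DMRs with the smallest p, the 5 and 5 with the largest change among those with at least 7 libraries of each group, and list promoters with unadjusted p under 0.05 (at most 3 a list). Gene lists, regions and comparisons were chosen with earlier results of these data known. Alternatives changed the thresholds, the scale, the groups in the fit and the libraries.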

Additional observations from a re-analysis of the deposited data

Results flagged for a closer look

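In each group of 4 to 10 libraries, the most extreme library was set against Dixon's 95% critical value for library-wide values, the named regions and the named list promoters. Of 70 groups tested, 7 had an outlying library, where chance gives about 1 in 20.

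For library-wide values, smoked WT column 4 was low in mean DNAme over shared cytosines at 41.94%, and control WT column 1 was high over the maternally methylated imprinted promoters at 5.36%. Among regions, smoked WT column 1 was low at Mro at 0.0245%, and control WT column 7 was low near Gm14323 at 6.32%. Among promoters, smoked WT column 7 was high at Nespas at 8.30%, and smoked WT column 2 was high at Hormad1 at 9.57% and at Hmox1 at 11.6%.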

How the results depend on the processing

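Depth is unknown for every value, so the limits come from the spread between libraries, which was widest in partially methylated regions. The mean difference of -0.443 points was reversed to 0.0618 without the 4 libraries that stand apart (control WT columns 1 and 7, smoked WT columns 2 and 4), a choice made after seeing the data, as were the covariate, the block, the plain means and the shared window counted once. The 4 libraries include the control WT library with the highest mean DNAme and the smoked WT library with the lowest. Leaving out each library in turn gave mean differences of -0.607 to -0.0804 points, the latter without smoked WT column 4. The between-group distance ranged from -0.0634 to -0.0107 points. The DMR count of 1642 became 190 at over 10 points, 4272 at a joining distance of 300 bp, 981 with at least 6 libraries of each group, and 3016 with cytosines scoreable in the 2 WT groups only. It ranged from 1576 to 1912 as each library was left out. How many of the same regions recurred in those counts was not taken. The split of 26.1% higher and 73.9% lower became 41.5% and 58.5% without the 4 libraries. The cause was not tested.

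limma called 0 regions in the fit of the 2 WT groups, on the arcsine scale, with array weights, at 300 bp, with at least 6 libraries, with the positions covariate and without the 4 libraries that stand apart. It called 1 on plain means, with a trend in the prior variance, with the strands averaged and with cytosines scoreable in the 2 WT groups. The adjusted p of Enpp4 ranged from 0.0120 to 0.99995 over the alternatives that held it, and from 0.000602 to 0.111 as each library was left out. Leaving out each library gave 0 to 2 calls, with 0 without smoked WT columns 3, 4 or 7 and 2 without control WT column 7 or smoked WT column 9. limma called 6 cytosines, 4 with the strands averaged, 7 with a trend in the prior variance and 0 in the fit of the 2 groups, and the region with changed spread was lost on the arcsine scale (0 calls, with 1573 at unadjusted p under 0.05). Leaving out each library, the difference in library deviation ranged from -0.145 to 0.0390 points, with the sign turned without control WT columns 7 (0.0390) or 9 (0.00416) or smoked WT columns 5 (0.00997) or 9 (0.0309). The imprinted promoters ranged from -0.202 to 0.161 points, the latter without control WT column 1. Of 737 alternative values for the 24 named regions, 0 changed sign. The regions were chosen by their difference in these same libraries, which favours a kept sign. Of the 737 values 10, all of Enpp4, lost the call. The other regions had no call to lose, and several moved by over 1.5 times: at 300 bp Enpp4 to 0.548, Tnnc2 to 0.0702 and Kcnh1 to -10.03 points, with array weights Prkg1 to 4.75 and Kcnh1 to -9.196, and with the block Kcnh1 to -24.7.

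The columns carry no replicate numbers, so the pairing tried was by facility numbers in the headings, in sets of 5 consecutive numbers. Deviations of the 9 pairs in the same set correlated from -0.0537 to 0.413, with a median of -0.0142. Of the 9 smoked WT libraries 2 correlated best with their own set. Control WT column 5 and smoked WT column 4, farthest out on the leading principal component, share a set (numbers 41 and 42). Whether a set marks a shared batch was not tested, and these whole-profile correlations cannot settle it for single sets. With this replicate block limma called 0 regions, with 2196 at unadjusted p under 0.05.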
